A study of Mus musculus with 2 samples.

Results

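The uroplakin genes measured here were Upk1a, Upk1b, Upk2, Upk3a, Upk3b and Upk3bl, 6 of the 32589 genes in the count tables. They were chosen by family name, with earlier results of these data known. The ureters of newborn mice (postnatal day 0) were studied by single-nucleus RNA sequencing, with 1 library from a pool of 14 DNp63cKO mice and 1 library from a pool of 13 control mice. DNp63cKO mice had the genotype Pax2-cre/+;DNp63fl/fl;R26mTmG/+, that is a cre recombinase driven by Pax2, DNp63 alleles flanked by loxP sites (DNp63 being the ΔN form made from Trp63), and a fluorescent reporter of cre activity. Pax2 marks the nephric duct lineage that gives rise to ureter epithelium, so the driver does not single out a layer of it. The label of the control pool is wt alone, and the 2 pools may also differ in driver and reporter. Each group had 1 library of pooled animals: a difference below lies between 2 libraries, has no replicate check and was not tested, and all intervals are exact at 95% and cover counting error only.

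Uroplakins are the membrane proteins of the urothelium, the layered epithelium that lines the urinary tract. UPK1A and UPK1B are tetraspanins, proteins that cross the membrane several times. UPK2 pairs with UPK1A, and UPK3A or UPK3B pairs with UPK1B. The pairs leave the endoplasmic reticulum together and pack into rigid plaques, the asymmetric unit membrane, on the surface of the superficial (umbrella) cells, where they form part of the barrier to urine. Superficial cells hold the most, basal cells the least.

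The genes lie apart in the mouse genome, except that Upk3b and Upk3bl are neighbours on chromosome 5. In GRCm38 coordinates (GENCODE M21), Upk1a occupies chr7:30603092-30612847 on the minus strand, Upk1b chr16:38773184-38800328 on the minus strand and Upk2 chr9:44452715-44454976 on the minus strand. Upk3a occupies chr15:85017141-85022547, Upk3b chr5:136038496-136046487 and Upk3bl chr5:136054492-136064326, all on the plus strand. The annotated ends of Upk3b and Upk3bl are 8.004 kb apart, and no annotated gene overlaps any of the 6. RefSeq start regions, 250 bases before to 50 bases after the start (GRCm38.p6), were matched for 4 of the 6 genes. Upk3a is shown because it had the most UMIs per kilobase of gene, and Upk3b and Upk3bl because these neighbours had opposite patterns across the epithelium. The RefSeq start of Upk3bl lies inside the GENCODE gene. Capitals mark matches, on either strand, to any motif searched.
Upk3a (chr15:85016891-85017190, plus strand): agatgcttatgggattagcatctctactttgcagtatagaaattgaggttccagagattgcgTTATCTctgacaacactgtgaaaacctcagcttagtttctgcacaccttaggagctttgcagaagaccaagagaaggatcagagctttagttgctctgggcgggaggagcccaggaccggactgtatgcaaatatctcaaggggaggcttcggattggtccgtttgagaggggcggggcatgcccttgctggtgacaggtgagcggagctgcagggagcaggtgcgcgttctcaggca
Upk3b (chr5:136038246-136038545, plus strand): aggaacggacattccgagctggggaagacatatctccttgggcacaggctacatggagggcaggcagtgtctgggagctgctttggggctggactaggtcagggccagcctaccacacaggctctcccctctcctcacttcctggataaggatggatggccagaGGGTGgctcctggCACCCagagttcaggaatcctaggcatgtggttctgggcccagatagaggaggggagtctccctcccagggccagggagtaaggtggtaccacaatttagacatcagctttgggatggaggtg
Upk3bl (chr5:136057017-136057316, plus strand): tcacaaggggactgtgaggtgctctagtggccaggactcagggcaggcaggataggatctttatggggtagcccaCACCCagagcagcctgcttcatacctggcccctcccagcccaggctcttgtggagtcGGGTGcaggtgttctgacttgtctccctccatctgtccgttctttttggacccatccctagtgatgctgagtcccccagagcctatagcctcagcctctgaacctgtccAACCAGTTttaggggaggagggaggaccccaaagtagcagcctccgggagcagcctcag
The motifs searched on both strands were the TATA box (TATAAA), the GATA motifs AGATAA and also TGATAA, the Grainyhead motif AACNNGTT with its stricter form AACCGGTT (which it includes), the forkhead motif TGTTTAC, the CACCC box of Klf factors, a p63 motif and the direct repeat bound by PPARG with RXRA. Upk3a held 1 AGATAA, printed on the other strand as TTATCT, a motif present in 11.2% of 32851 start regions of the same length. Upk3b held 2 CACCC, a motif in 57.5% of start regions, and so did Upk1a. Upk3bl held 2 CACCC and 1 AACNNGTT, and AACNNGTT, 9 bases before the start, is found in 4.20% of start regions. None of the 4 regions held any of the other motifs. These matches describe letters in a window and say nothing of binding.

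The DNp63cKO library held 5528 nuclei and the control library 9062, with median UMIs per nucleus of 1298 in DNp63cKO and 1124.5 in control, and 58 barcodes occurred in both. Nuclei were clustered without the 6 uroplakin genes and named from other markers, so that the levels below did not enter the classes. Urothelium-like nuclei, the epithelial class, numbered 2291 of 5172 kept nuclei in DNp63cKO (44.3%) and 5217 of 8379 in control (62.3%). All 20 listed urothelial markers were detected in the class, with summed levels of 25321 CPM in DNp63cKO and 22011 CPM in control. All 20 were also detected in fibroblast-like and smooth-muscle-like nuclei, at lower summed levels. These were 5259 in DNp63cKO and 5237 CPM in control for fibroblast-like nuclei, and 5043 in DNp63cKO and 5433 CPM in control for smooth-muscle-like nuclei. CPM is the usual depth-scaled level, a gene's UMIs relative to all UMIs of the class and library. Summed smooth muscle markers stood at 1162 in DNp63cKO and 775 CPM in control in the same nuclei, and summed fibroblast markers at 1390 in DNp63cKO and 947 CPM in control. Summed mesothelium markers, which include Msln, stood at 455 in DNp63cKO and 74.6 CPM in control, collecting duct and nephron markers at 224 in DNp63cKO and 88.1 CPM in control, and pericyte markers at 245 in DNp63cKO and 575 CPM in control. Their part in the results below was not tested. Trp63, the targeted gene, had 560 UMIs (133 CPM) in DNp63cKO and 1849 UMIs (198 CPM) in control urothelium-like nuclei, with 31.7 in DNp63cKO and 70.9 CPM in control outside the epithelium. These counts join all isoforms and exons, and UMIs tagged outside the deleted part do not test the deletion.

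Summed over the family, urothelium-like nuclei held 49511 UMIs in DNp63cKO and 98831 UMIs in control. That is a level of 11795 CPM (11691 to 11899) in DNp63cKO and 10579 CPM (10513 to 10645) in control. Most came from Upk1b, Upk3a and Upk1a. Of the family's UMIs, Upk1b gave 38.0% in DNp63cKO and 42.8% in control, Upk3a 29.7% in DNp63cKO and 29.1% in control, Upk1a 22.2% in DNp63cKO and 19.9% in control, Upk2 6.53% in DNp63cKO and 5.10% in control, Upk3b 3.40% in DNp63cKO and 2.89% in control, and Upk3bl 0.204% in DNp63cKO and 0.185% in control.

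Of the tetraspanins, Upk1b had a level of 4483 CPM in DNp63cKO and 4529 CPM in control, with a log2 ratio (DNp63cKO over control) of -0.01 and an interval of -0.04 to 0.01. For Upk1a the level was 2615 CPM in DNp63cKO and 2107 CPM in control, and the log2 ratio 0.31 (0.28 to 0.35). The 2 tetraspanins therefore differed in how they compared between the libraries: Upk1a was higher in DNp63cKO while Upk1b lay within counting error.

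Their partners were all higher in DNp63cKO in this pooled comparison. Upk2, the partner of UPK1A, had 770.0 CPM in DNp63cKO and 539 CPM in control, and its log2 ratio was 0.51 (0.45 to 0.58). Upk3a, a partner of UPK1B, stood at 3502 in DNp63cKO and 3079 CPM in control, a log2 ratio of 0.19 (0.16 to 0.21). Upk3b, the alternative partner of UPK1B, stood at 401 in DNp63cKO and 306 CPM in control, a log2 ratio of 0.38 (0.30 to 0.48). Upk2 had the largest of the 6 ratios in this class.

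Upk3bl, named for its likeness to Upk3b, was rare. It had 101 UMIs in DNp63cKO and 183 in control urothelium-like nuclei, or 24.1 CPM (19.6 to 29.2) in DNp63cKO and 19.6 CPM (16.9 to 22.6) in control, with a log2 ratio of 0.24 (-0.07 to 0.65). Ratios were taken after adding 5 CPM to both sides, while their intervals leave it out, which matters most for such low genes.

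None of the 6 genes was past 1.5-fold in either direction in the pooled class, where 3.94% of 12893 genes were higher and 3.24% lower past that size. Upk2 was past it as a mean over nuclei (log2 ratio 0.77) and after thinning (0.61), and leaving out cluster 0 put 3 genes past it as lower and Upk3bl as higher, with values given below. The family's median log2 ratio was 0.28, with 5 above 0 and 1 below, and the median of all genes was 0.00 (quartiles -0.17 and 0.18). The 6 genes summed gave 0.16 (0.14 to 0.17).

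The order of levels depended on whether gene length was counted. Nuclear RNA includes unspliced transcripts, and whether introns were counted is not given in the sources used here. Per kilobase of annotated gene, Upk3a came first with 648 CPM per kb in DNp63cKO and 570 in control. Upk2, the shortest gene at 2.262 kb, followed with 340 in DNp63cKO and 238 in control, then Upk1a with 268 in DNp63cKO and 216 in control, and Upk1b, the longest at 27.145 kb, with 165 in DNp63cKO and 167 in control. Upk3b had 50.1 in DNp63cKO and 38.3 in control and Upk3bl 2.45 in DNp63cKO and 1.99 CPM in control per kb. Per kilobase, Upk2 thus exceeded its partner Upk1a, and Upk3a exceeded its partner Upk1b, in both libraries. Whether UMI counts scale with gene length in these libraries was not tested. Upk3b and Upk3bl were last with and without the scaling by length.

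**Figure D1:**
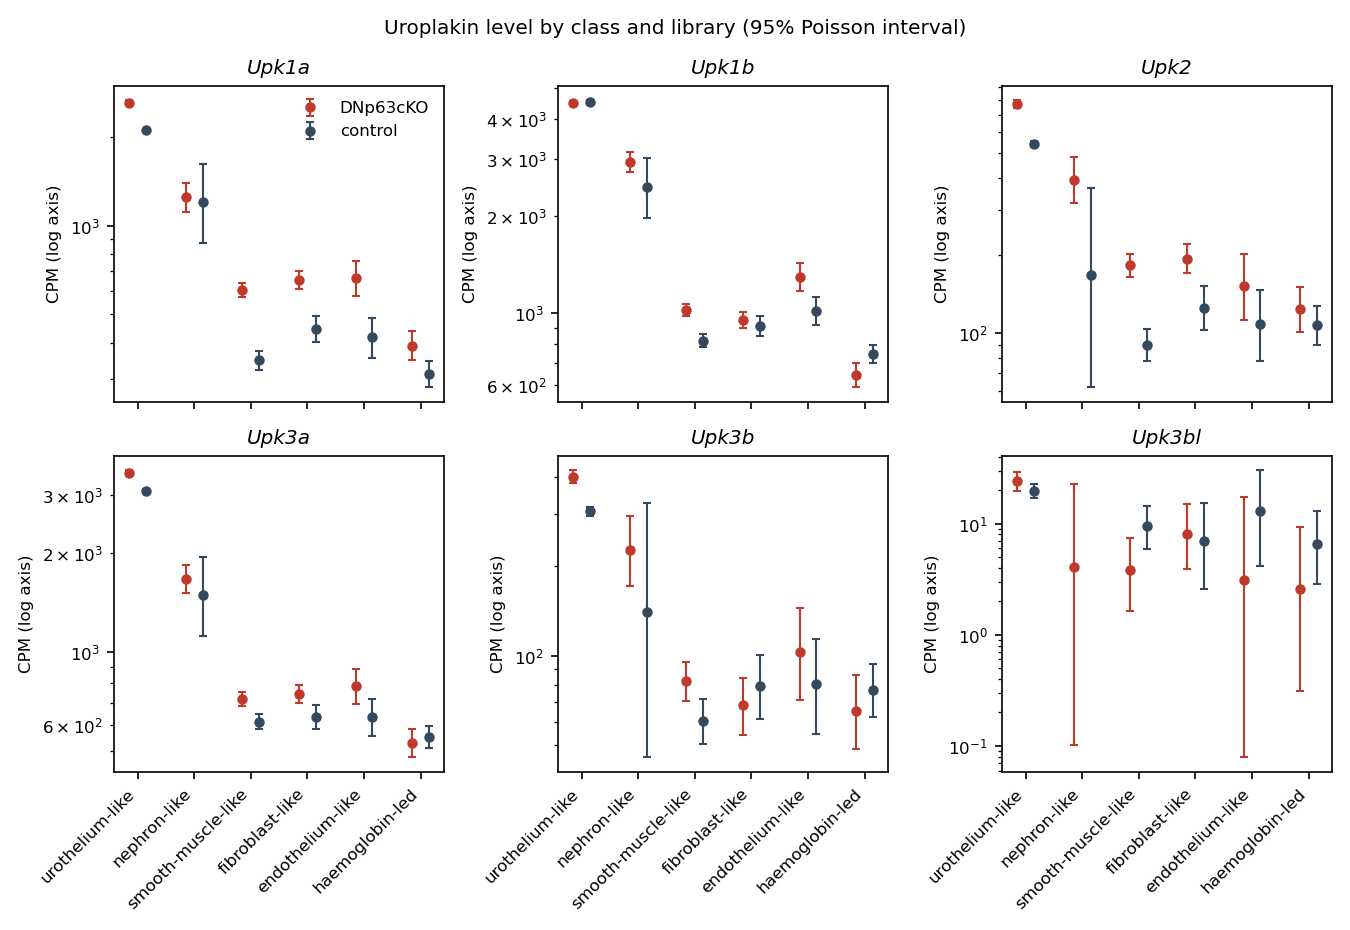
Level (CPM, log axis) of each uroplakin gene by class of nuclei, DNp63cKO (left, red) and control (right, dark) in each pair, 1 library each; bars are exact 95% Poisson intervals. The 5 more abundant genes are highest in urothelium-like nuclei (Upk1b at 4483 in DNp63cKO and 4529 CPM in control) and keep a lower level in every other class drawn, while Upk3bl is far lower there (24.1 in DNp63cKO and 19.6 CPM in control).

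The 2 libraries held the epithelial clusters in different proportions. Within the urothelium-like class, 8 numbered clusters were compared. Cluster 0, led by Spp1, Msln, Sprr2a3 and Car2, held 1089 of the DNp63cKO nuclei and 94 of the control nuclei. It had 1 mesothelium marker (Msln) and no marker of its own class among its 10 leading genes, and so failed the check on class names, although the class as a whole passed it. Cluster 3, led by Clu, Bpifb1 and Chst2, held 26 DNp63cKO and 526 control nuclei, and cluster 6, led by Lypd3, Ivl and Gstm1, held 17 in DNp63cKO and 753 in control. Cluster 2, led by Cdh20 and Pla2r1, held 176 in DNp63cKO and 619 in control. Cluster 5, led by Krt5, a basal keratin, Jag2 and Itgb4, held 250 in DNp63cKO and 1161 in control, cluster 7, led by Gm13219 and Pak6, held 357 in DNp63cKO and 1291 in control, and cluster 8, led by the division genes Mki67 and Aspm, held 260 in DNp63cKO and 435 in control. Cluster 1, led by 9530062K07Rik, was shallow, with 115 in DNp63cKO and 317 nuclei in control and a median of 707.5 UMIs. Clusters 1 and 2 got no name of their own from the marker lists, and were kept as part of the class.

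The family as a whole was highest in clusters 3 and 0 and lowest in clusters 5, 7 and 8. Cluster 3 reached 25767 CPM in DNp63cKO and 21165 CPM in control, and cluster 0 reached 15842 in DNp63cKO and 13676 CPM in control. Clusters 2, 6 and 1 were intermediate, at 11326 in DNp63cKO and 11828 CPM in control, 10592 in DNp63cKO and 11192 CPM in control, and 8201 in DNp63cKO and 6741 CPM in control. The Krt5-led cluster 5 had 4499 CPM in DNp63cKO and 3606 CPM in control, cluster 7 had 3338 in DNp63cKO and 3685 CPM in control, and the dividing cluster 8 had 3145 in DNp63cKO and 3647 CPM in control. These lowest 3 clusters stood 1.20 to 1.71 times above the fibroblast-like nuclei of their own library, against 9.82 times in DNp63cKO and 9.60 times in control for cluster 3.

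Upk1a was at or near the fibroblast-like level in clusters 5, 7 and 8. Its level there was 1.09, 0.818 and 0.720 times the fibroblast-like level in DNp63cKO and 0.883, 1.17 and 1.02 times in control. Pooled nuclei outside the epithelium had a Upk1a level of 584 CPM in DNp63cKO and 364 CPM in control. In control, clusters 5, 7 and 8 were above that, at 394, 520 and 455 CPM. In DNp63cKO, cluster 5 was above it at 713 CPM, and clusters 7 and 8 were below it at 534 and 471 CPM. Whether these clusters express Upk1a was not tested. Upk1b was 1.57 to 2.21 times the fibroblast-like level in the same clusters, and Upk3a 1.14 to 1.91 times.

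**Figure D2:**
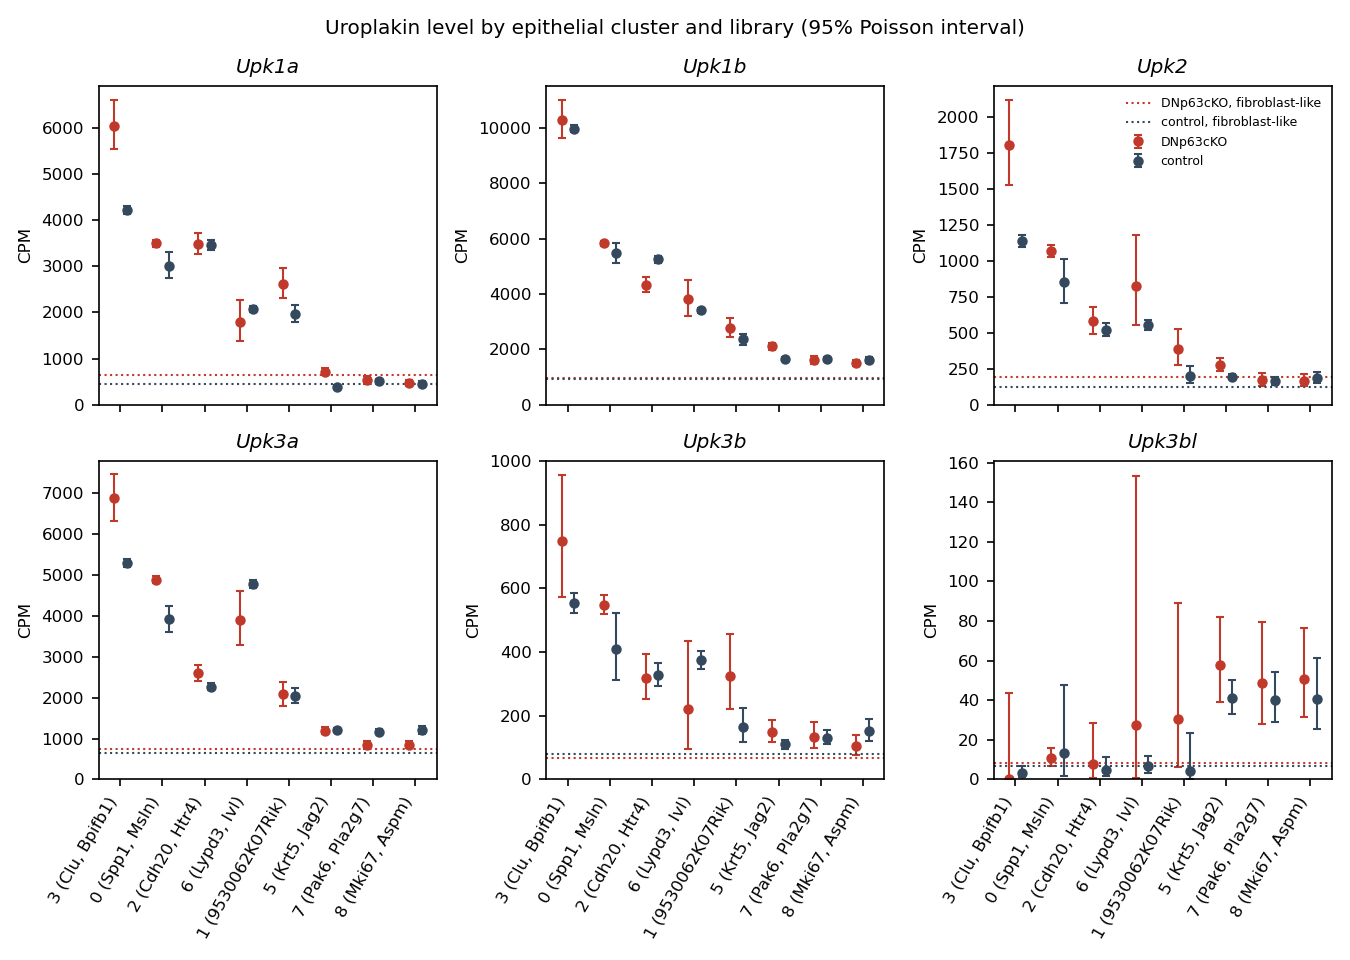
CPM of each uroplakin gene (linear axis from 0, a scale per panel) in 8 numbered epithelial clusters, named by leading genes, DNp63cKO left and control right in each pair, with exact 95% Poisson intervals; dotted lines mark the fibroblast-like level of each library. Upk1a, Upk1b, Upk2, Upk3a and Upk3b are highest in cluster 3 and lowest in clusters 5, 7 and 8, and Upk3bl is highest in clusters 5, 7 and 8.

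Upk3bl ran the other way from the rest of the family. It was highest where the others were lowest: 57.8 CPM in DNp63cKO (31 UMIs) and 41.0 CPM in control (89 UMIs) in cluster 5, 48.9 in DNp63cKO and 40.1 CPM in control in cluster 7 (16 in DNp63cKO and 43 UMIs in control), and 50.5 in DNp63cKO and 40.7 CPM in control in cluster 8 (22 UMIs in each library). Cluster 3 had 0 Upk3bl UMIs in DNp63cKO, where 3 UMIs would be 35.6 CPM and the exact interval reaches 43.8 CPM, and 8 UMIs (3.45 CPM) in control. Cluster 0 had 10.7 CPM in DNp63cKO (26 UMIs) and 13.2 CPM in control (2 UMIs). Fibroblast-like nuclei had 8.11 CPM in DNp63cKO (10 UMIs, 3.89 to 14.9) and 6.99 CPM in control (6 UMIs, 2.56 to 15.2), and all nuclei outside the epithelium 4.56 CPM in DNp63cKO and 8.97 CPM in control. The Upk3bl intervals of clusters 5, 7 and 8 lay above these, while the control levels of clusters 2, 3 and 6, from 3.45 to 6.68 CPM, did not exceed them. Its neighbour Upk3b had 747 CPM in DNp63cKO and 553 CPM in control in cluster 3, against 106 in DNp63cKO and 153 CPM in control in cluster 8.

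The makeup of the family also differed among the clusters with high levels. In cluster 6, Upk3a gave 36.9% of family UMIs in DNp63cKO and 42.7% in control, with an Upk3a to Upk1b ratio of 1.02 in DNp63cKO and 1.40 in control. In cluster 2, Upk3a gave 22.9% in DNp63cKO and 19.2% in control, with a ratio to Upk1b of 0.599 in DNp63cKO and 0.433 in control. Upk1a was a larger part of the family in clusters 1 and 2, at 31.9% and 30.8% in DNp63cKO and 29.3% in both clusters in control, than in cluster 6, at 16.9% in DNp63cKO and 18.6% in control. Clusters of similar family level, such as 2 and 6, therefore held the tetraspanins and Upk3a in different proportions. The cluster 6 values for DNp63cKO rest on 17 nuclei.

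Within clusters, the sign of the ratio varied by gene. Upk1a and Upk2 were higher in DNp63cKO in 7 of 8 clusters each, with counting intervals above 0 in 4 clusters for Upk1a and 5 for Upk2 and below 0 in none. Upk1a ranged from -0.22 in cluster 6 to 0.85 in cluster 5, and Upk2 from -0.17 in cluster 8 to 0.91 in cluster 1. Upk1b was higher in 5 of 8 clusters, from -0.28 in cluster 2 to 0.34 in cluster 5. Upk3a was higher in 4 of 8, from -0.50 in cluster 8 to 0.38 in cluster 3, with 3 intervals above 0 and 3 below. Upk3b was higher in 5 of 8, from -0.75 in cluster 6 (8 in DNp63cKO and 673 UMIs in control) to 0.96 in cluster 1 (32 in DNp63cKO and 39 UMIs in control). Upk3bl had 10 or more UMIs over both libraries in 5 clusters and was higher in 4 of them, and each of its intervals included 0.

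Upk1a and Upk2 were thus the members whose direction was most often shared among clusters, but their levels outside the epithelium were higher in DNp63cKO too. In fibroblast-like nuclei Upk1a stood at 653 in DNp63cKO and 446 CPM in control, and Upk2 at 195 in DNp63cKO and 126 CPM in control. Subtracting the fibroblast-like level of the same library left a log2 ratio of 0.24 for Upk1a and 0.47 for Upk2 in the pooled class. In cluster 5, Upk1a was 713 CPM in DNp63cKO and 394 CPM in control, close to those background levels. The part of the background in the ratios by cluster was not tested.

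Leaving out cluster 0 reversed the pooled direction. The family log2 ratio was then -0.75, with Upk1a at -0.58, Upk1b at -0.77, Upk2 at -0.55, Upk3a at -0.92 and Upk3b at -0.60, and Upk3bl at 0.94. This removes 1089 of 2291 DNp63cKO nuclei but 94 of 5217 control nuclei, while cluster 3, which has the highest family level and is mostly from control, stays. With each cluster given the same weight in both libraries, the family ratio was 0.12 over all 8 clusters, from 9044 CPM in DNp63cKO and 8348 CPM in control. Without cluster 6, where DNp63cKO had 17 nuclei, it was 0.14, from 8866 CPM in DNp63cKO and 8021 CPM in control. Genotype and the makeup of the 2 pools cannot be told apart with 1 library each.

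**Figure D3:**
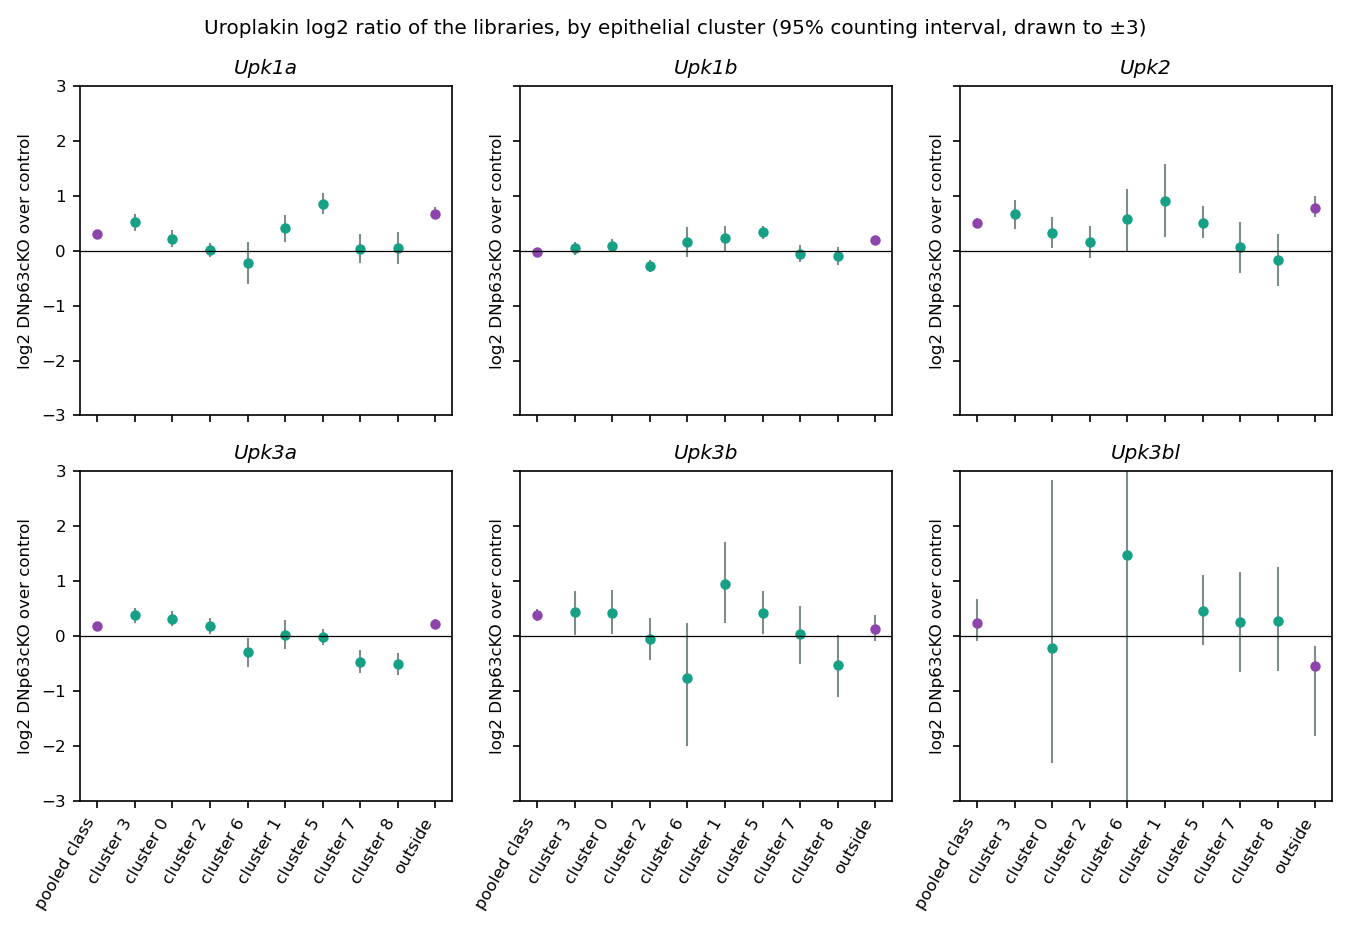
Log2 ratio of DNp63cKO over control (CPM + 5) of each uroplakin gene in the pooled urothelium-like class, in the numbered clusters where the gene had at least 10 UMIs, and outside the epithelium; lines are exact 95% counting intervals without the added 5 CPM, drawn only to 3 log2 units either way. Most points lie within 1 log2 unit of 0, Upk1a and Upk2 are above 0 in 7 of 8 clusters, and Upk3bl intervals are wide.

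Uroplakin UMIs were spread unevenly over epithelial nuclei. To compare nuclei of unequal depth, each was thinned at random to 700 UMIs, which left 2105 DNp63cKO and 4293 control urothelium-like nuclei (shallower ones left out numbered 186 in DNp63cKO and 924 in control). The median nucleus then had 6 family UMIs in DNp63cKO and 4 in control, with means of 7.04 in DNp63cKO and 5.67 in control. The variance was 4.54 times the mean in DNp63cKO and 4.51 times in control. The top 10% of nuclei held 27.0% of family UMIs in DNp63cKO and 29.7% in control, and the share of nuclei with none was 5.32% in DNp63cKO and 6.34% in control.

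The spread followed the clusters. Cluster 3 nuclei had a median of 16.5 family UMIs in DNp63cKO and 14 in control, cluster 0 nuclei 9 in DNp63cKO and 7 in control, and nuclei of clusters 5, 7 and 8 had 2 in both libraries. In clusters 0 and 3 the variance over mean was lower than in the whole class, at 2.79 in DNp63cKO and 3.48 in control in cluster 0, and 2.45 in DNp63cKO and 1.45 in control in cluster 3. At least 10 family UMIs were found in 28.8% of urothelium-like nuclei in DNp63cKO (26.9 to 30.8%) and 21.0% in control (19.8 to 22.2%), against 0.676% in DNp63cKO and 0.182% in control outside the epithelium. UMIs of 4 or more of the genes were found in 29.7% in DNp63cKO and 19.1% in control, against 2.31% in DNp63cKO and 0.914% in control for fibroblast-like nuclei.

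**Figure D4:**
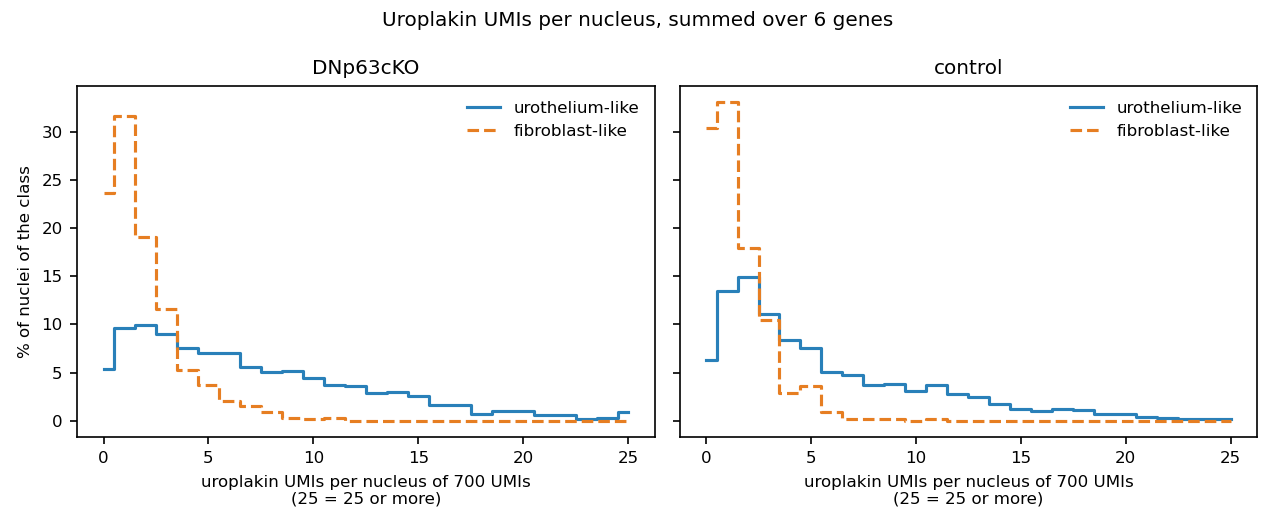
Share of nuclei (percent, y axis) by number of uroplakin UMIs summed over 6 genes after thinning to 700 UMIs per nucleus (x axis, 25 standing for 25 or more), in DNp63cKO (left panel) and control (right panel). Urothelium-like nuclei (solid) spread from 0 to 25 or more, with medians of 6 in DNp63cKO and 4 in control, while fibroblast-like nuclei (dashed) peak at 1.

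Detection of each gene followed its UMI count. A UMI of Upk1b was seen in 82.2% of thinned urothelium-like nuclei in DNp63cKO and 76.6% in control, of Upk3a in 71.5% in DNp63cKO and 67.1% in control, and of Upk1a in 63.5% in DNp63cKO and 51.7% in control. Upk2 was seen in 30.6% in DNp63cKO and 22.4% in control, Upk3b in 20.4% in DNp63cKO and 14.7% in control, and Upk3bl in 1.62% in DNp63cKO and 1.33% in control. Unthinned, these shares were 90.4% in DNp63cKO and 83.9% in control for Upk1b, 82.1% in DNp63cKO and 73.8% in control for Upk3a, 75.2% in DNp63cKO and 59.4% in control for Upk1a, 47.8% in DNp63cKO and 34.8% in control for Upk2, 37.6% in DNp63cKO and 27.9% in control for Upk3b, and 3.62% in DNp63cKO and 3.12% in control for Upk3bl. Fibroblast-like nuclei, which should lack uroplakins, had a Upk1b UMI in 43.8% in DNp63cKO and 42.2% in control after thinning, Upk3a in 38.7% in DNp63cKO and 30.7% in control, Upk1a in 30.7% in DNp63cKO and 23.4% in control, and Upk2 in 12.2% in DNp63cKO and 7.68% in control. They had Upk3b in 4.08% in DNp63cKO and 4.75% in control and Upk3bl in 0.543% in DNp63cKO and 0.548% in control. The median depth of urothelium-like nuclei was 1419 UMIs in DNp63cKO and 1215 in control, and that of fibroblast-like nuclei 1058.5 in DNp63cKO and 817 in control. A uroplakin UMI was thus common outside the epithelium too, and the shares for all 6 genes were higher inside.

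Nuclei with a UMI of a layer gene differed in uroplakin level. After thinning, nuclei with a UMI of Krt5, the basal keratin, had 4016 family CPM in DNp63cKO (212 nuclei) and 4183 CPM in control (433 nuclei), and nuclei without one had 10731 in DNp63cKO and 8536 CPM in control. Nuclei with a UMI of Krt20, a keratin of superficial cells, had 12550 CPM in DNp63cKO and 10271 CPM in control, and those without 9550 in DNp63cKO and 7518 CPM in control. With a Trp63 UMI the family stood at 7567 in DNp63cKO and 5257 CPM in control, and without at 10305 in DNp63cKO and 8530 CPM in control. With a UMI of Mki67, a division marker, it stood at 5395 in DNp63cKO and 4558 CPM in control, and without at 10441 in DNp63cKO and 8313 CPM in control. Lower family levels thus went with Krt5, Trp63 and Mki67 and higher ones with Krt20 in both libraries. At this depth a nucleus without a UMI may still express the gene.

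The 5 abundant genes were correlated across epithelial nuclei. In log2(UMI + 1) after thinning, their 10 pairs had Pearson correlations of 0.15 to 0.46 in DNp63cKO (n = 2105 nuclei, median 0.29) and 0.12 to 0.46 in control (n = 4293 nuclei, median 0.24). The highest were Upk1b with Upk3a in DNp63cKO (0.46) and Upk1a with Upk1b in control (0.46). Upk1a with Upk2, whose proteins pair, had 0.27 in DNp63cKO and 0.28 in control. These nuclei share a library and one depth, and the rarer genes are bounded by their low counts. Outside the epithelium the median of the 10 pairs was 0.11 in DNp63cKO and 0.03 in control.

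Correlations were lower within clusters. Within single clusters of 100 or more thinned nuclei, the median of the 10 pairs was 0.03 to 0.17 in DNp63cKO and 0.03 to 0.11 in control. Such weak values in sparse counts are not read as co-variation. Across the whole class, Upk3bl had correlations of -0.09 to -0.02 in DNp63cKO and -0.06 to -0.02 in control with the other 5 genes. Over 16 pools (8 clusters in 2 libraries), log2(CPM + 5) of the 5 abundant genes correlated at 0.88 to 0.96 and Upk3bl with each of them at -0.87 to -0.72. The pools share libraries, and uroplakin UMIs occurred outside the epithelium of both, and the 2 pools of a cluster are not independent.

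**Figure D5:**
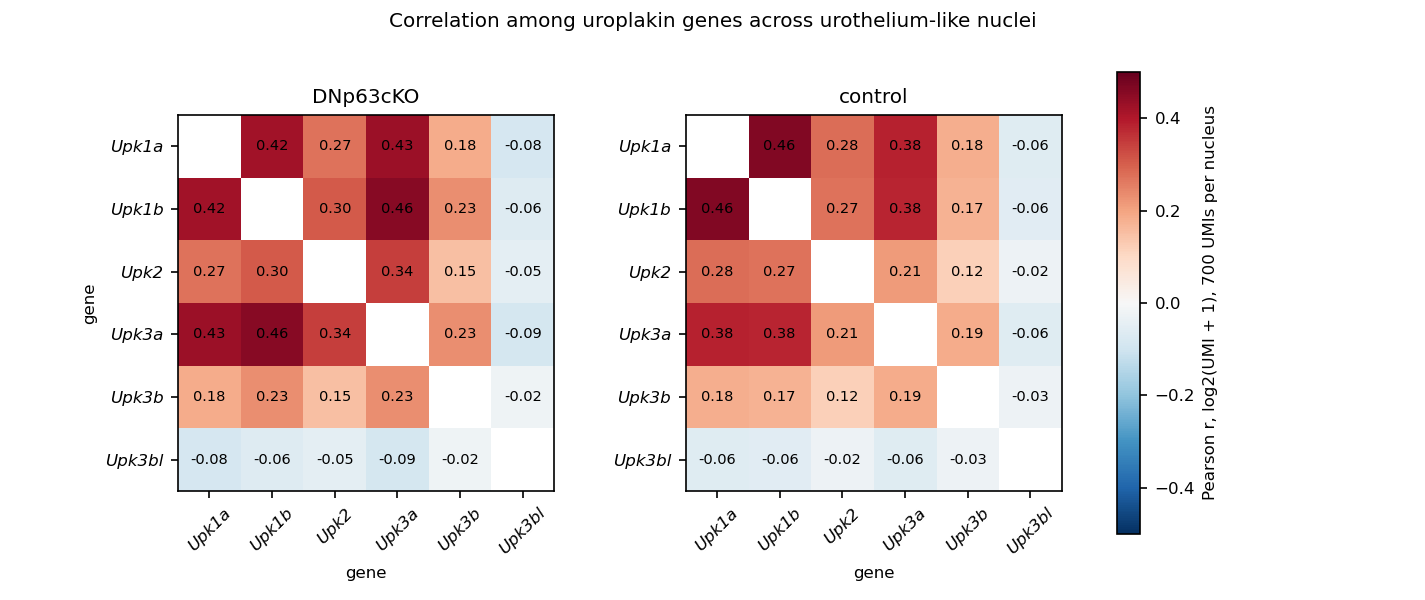
Pearson correlation of log2(UMI + 1) between pairs of uroplakin genes across urothelium-like nuclei thinned to 700 UMIs, in DNp63cKO (left, 2105 nuclei) and control (right, 4293 nuclei). Pairs among Upk1a, Upk1b, Upk2, Upk3a and Upk3b are positive, the highest at 0.46 in each library, and every pair with Upk3bl is weakly negative.

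Over the same 16 pools, the genes most like the summed family were Fam91a1 (r = 0.980), Arpc1a (0.972), an actin-nucleating complex subunit, Mfsd4a (0.967), Rab11fip5 (0.963), an effector of the recycling GTPase RAB11, and Psca (0.962), a surface antigen of the urothelium, among 8741 genes with 50 or more CPM in a pool. By gene, Mfsd4a was closest to Upk1a (0.980), Psca to Upk1b (0.978) and to Upk2 (0.984), Akr1b3 to Upk3a (0.970), and Mgat3 to Upk3b (0.942). Upk3bl was closest to Tril (0.966), Gprc5b (0.961) and Nasp (0.955), a histone chaperone. None of these 3 genes was among the 3 closest to another member. That adds nothing to the pattern of Upk3bl, which over the same pools ran opposite to every other member (-0.87 to -0.72).

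Genes of uroplakin vesicle traffic were compared in the same class. Of 14 listed partners, 13 had 50 or more UMIs over both libraries, and none was past 1.5-fold, where 3.94% of all genes were higher and 3.24% lower. Their median log2 ratio was 0.06 (7 above 0, 6 below). Snx31, a sorting nexin that binds uroplakins, stood at 1397 in DNp63cKO and 1096 CPM in control (0.35), and Mal, a raft protein of apical membranes, at 1136 in DNp63cKO and 947 CPM in control (0.26). Myo5b, a vesicle motor, stood at 109 in DNp63cKO and 139 CPM in control (-0.33), and Rab11fip5 at 271 in DNp63cKO and 335 CPM in control (-0.30). Across the pools, Snx31 (0.889), Rab11a (0.912) and Rab11fip5 (0.963) had high correlations with the family, while Rab8a (0.089) and Vps33a (0.011) did not.

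Of 16 listed regulators, Hes1 alone was higher past 1.5-fold and Notch1 alone lower, against 3.94% of all genes higher and 3.24% lower. Hes1, a repressor downstream of Notch, stood at 703 in DNp63cKO and 435 CPM in control (0.69), and the receptor Notch1 at 50.7 in DNp63cKO and 137 CPM in control (-1.34). Pparg, a nuclear receptor of urothelial differentiation, stood at 563 in DNp63cKO and 793 CPM in control (-0.49), its partner Rxra at 136 in DNp63cKO and 202 CPM in control (-0.56), and Trp63 at 133 in DNp63cKO and 198 CPM in control (-0.55). Across the pools, the most extreme correlations with the family among the listed regulators were those of Grhl3 (0.909), Trp63 (-0.824) and Gata6 (-0.721). Grhl3 is a factor of superficial cells, and it was lower in DNp63cKO in the pooled class (240 in DNp63cKO and 324 CPM in control, -0.42). Other listed factors lay between these extremes, among them Elf3 (0.418), Pparg (0.060), Rxra (-0.053), Gata3 (-0.527) and Klf5 (-0.588). With Upk3bl the signs were turned, at -0.892 for Grhl3, 0.827 for Trp63 and 0.862 for Gata6. Pools of both libraries enter these values, although Trp63 was targeted in DNp63cKO, and pools of the same cluster are not independent. Some pools held few Upk3bl UMIs, such as 0 in cluster 3 of DNp63cKO and 2 in cluster 0 of control.

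Of the 16 listed epithelial genes other than uroplakins, Sprr1a was higher past 1.5-fold (9660 CPM in DNp63cKO and 5675 CPM in control, 0.77) and Krt7, Shh and Grhl2 were lower, beside the same 3.94% and 3.24% of all genes. Krt7, a simple epithelium keratin, stood at 955 in DNp63cKO and 1517 CPM in control (-0.66), and Shh, a secreted signal, at 52.6 in DNp63cKO and 137 CPM in control (-1.30). Krt20, which marks superficial cells as uroplakins do, stood at 328 in DNp63cKO and 465 CPM in control (-0.50), while Psca stood at 1974 in DNp63cKO and 1419 CPM in control (0.47). Grhl2, an epithelial transcription factor, stood at 85.5 in DNp63cKO and 137 CPM in control (-0.65). Krt20 was thus lower in DNp63cKO in the pooled class, where Upk1a, Upk2, Upk3a and Upk3b were higher beyond counting error. Without cluster 0 these uroplakin genes were lower too, at -0.58, -0.55, -0.92 and -0.60, and Krt20 was not compared by cluster.

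Uroplakin RNA was found in every class outside the epithelium. Pooled over these classes without the nephron-like group described last, the family stood at 2499.5 CPM in DNp63cKO (2816 nuclei) and 1983 CPM in control (3147 nuclei), or 21.2% (20.8 to 21.6%) of the urothelium-like level in DNp63cKO and 18.7% (18.4 to 19.1%) in control. Smooth-muscle-like nuclei had 2614 CPM in DNp63cKO and 1941 CPM in control, fibroblast-like nuclei 2624 in DNp63cKO and 2204 CPM in control, and endothelium-like nuclei 3003 in DNp63cKO and 2264 CPM in control. A haemoglobin-led group, whose other leading genes include mesenchymal Vim and Dpt, had 1753 in DNp63cKO and 1800 CPM in control. Macrophage-like nuclei had 2411 CPM in DNp63cKO (44 nuclei) and 1841 CPM in control (20 nuclei). A group of 65 DNp63cKO and 15 control nephron-like nuclei stood higher, at 6481 in DNp63cKO and 5466 CPM in control. Its leading genes held 1 listed nephron marker (Slc34a1), beside Slc5a12, Pck1, Ahsg, Fgg, Afp, Itih3, Kng1, Fgb and Fga. Its summed collecting duct and nephron markers stood at 1017 in DNp63cKO and 785 CPM in control. The leading genes other than Slc34a1 are on none of the marker lists and were not used for the name. Its urothelial markers stood at 9624 in DNp63cKO and 7541 CPM in control. The name is therefore tentative, and what these nuclei are was not tested.

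The proportions of the genes outside the epithelium were near those inside it. Outside, Upk1b gave 38.3% of family UMIs in DNp63cKO and 42.3% in control, against 38.0% in DNp63cKO and 42.8% in control inside. Upk3a gave 28.1% in DNp63cKO and 30.3% in control outside, against 29.7% in DNp63cKO and 29.1% in control inside, and Upk1a 23.4% in DNp63cKO and 18.3% in control, against 22.2% in DNp63cKO and 19.9% in control. Upk2 gave 7.08% in DNp63cKO and 5.11% in control outside, against 6.53% in DNp63cKO and 5.10% in control inside. Upk3b gave 3.05% in DNp63cKO and 3.47% in control outside, against 3.40% in DNp63cKO and 2.89% in control inside. In DNp63cKO the intervals inside and outside overlapped for Upk1b, Upk2, Upk3b and Upk3bl but not for Upk1a and Upk3a. In control they overlapped for Upk1b and Upk2 but not for Upk1a, Upk3a, Upk3b and Upk3bl. The share of Upk3bl in control was 0.452% of family UMIs outside (43 UMIs, 0.327 to 0.609%) against 0.185% inside. In DNp63cKO it was 0.182% outside (21 UMIs) and 0.204% inside.

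By gene, the level outside was 19.0 to 23.0% of the level inside in DNp63cKO. In control it was 17.3 to 22.5% for the 5 abundant genes and 45.8% (32.0 to 64.1%) for Upk3bl. Among 16 other epithelial genes the same share ran from 10.9% (Krt5) to 31.1% (Esrp1) in DNp63cKO, with a median of 19.0%, and from 19.2% (Cdh1) to 38.3% (Krt5) in control, with a median of 26.8%. All 6 uroplakin shares lay inside that range in DNp63cKO. In control, Upk1a (17.3%), Upk1b (18.5%) and Upk2 (18.8%) lay below it, Upk3bl (45.8%) above it, and Upk3a (19.5%) and Upk3b (22.5%) inside it.

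Levels outside the epithelium also differed between the libraries. Upk2 was at 177 in DNp63cKO and 101 CPM in control (log2 ratio 0.78, 0.64 to 0.97), Upk1a at 584 in DNp63cKO and 364 CPM in control (0.68, 0.60 to 0.77), Upk3a at 701 in DNp63cKO and 602 CPM in control (0.22), Upk1b at 956 in DNp63cKO and 838 CPM in control (0.19) and Upk3b at 76.2 in DNp63cKO and 68.8 CPM in control (0.14). Upk3bl had the opposite sign, at 4.56 in DNp63cKO and 8.97 CPM in control (-0.55, -1.80 to -0.19, from 21 in DNp63cKO and 43 UMIs in control). In smooth-muscle-like nuclei, Upk1a (603 CPM in DNp63cKO and 348 CPM in control) and Upk2 (183 in DNp63cKO and 90.2 CPM in control) were higher past 1.5-fold, as were 2.74% of 10872 genes, and none of the 5 members with 50 or more UMIs was lower, as were 3.01%. In fibroblast-like nuclei, Upk2 alone was higher past 1.5-fold, as were 4.73% of 8583 genes, and none was lower, as were 3.65%. The order of the ratios, with Upk2 and Upk1a above Upk3a and Upk1b, was the same outside as in the pooled epithelium, where Upk3b alone of the 5 changed place. The source of the UMIs outside the epithelium was not tested.

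Depth went with the level inside the epithelium. When urothelium-like nuclei were split into groups of equal size by depth, the family stood at 6475, 9696 and 14218 CPM from the shallowest to the deepest group in DNp63cKO and at 4586, 5753 and 13519 CPM in control. In smooth-muscle-like nuclei it stood at 2272, 2973 and 2558 CPM in DNp63cKO and 2148, 2158 and 1834 CPM in control, with no such order. In fibroblast-like nuclei it was 1864, 2347 and 2992 CPM in DNp63cKO, again from shallow to deep, and 2233, 1950 and 2321 CPM in control. Cluster 3, which had the highest uroplakin level, also had the deepest nuclei of the epithelium, with a median of 3821 UMIs. The family log2 ratio was 0.38 as a mean over nuclei and 0.31 after thinning, against 0.16 summed, and the sign of Upk1b turned positive, at 0.24 as a mean over nuclei and 0.17 after thinning.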

How the data were processed

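Both libraries were made with the Singleron GEXSCOPE V3 single nucleus kit, per the labels' protocols, from frozen ureters pooled by genotype, in microwells. The authors deposited a matrix of UMI counts for each library, in whole numbers, with no scaling. Per the submitters' processing notes, the tools were Seurat 4.0.5 in R 4.0.5 and STARsolo in STAR 2.7.11a, with build mm10; which tool did which step is not stated there. Annotation, barcode filter and intron counting: not given in the sources used here. Of 32589 gene IDs, 32445 matched GENCODE M21 (GRCm38, the assembly of mm10).

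Total depth was 9859451 UMIs in DNp63cKO and 16063644 in control. A filter of at least 300 genes and no more than 5% mitochondrial UMIs passed 5491 of 5528 DNp63cKO and 8889 of 9062 control nuclei. Scrublet's automatic threshold marked 0 nuclei and so had not worked; nuclei at or above each library's 95th percentile of the score were removed instead. With ties at that score, these were 319 nuclei in DNp63cKO (5.81%) and 510 in control (5.74%). Counts scaled to 10000 were log-transformed and clustered (scanpy 1.11.5, 2000 variable genes, 30 components, 15 neighbours, no integration) without the 6 uroplakin genes. Leiden resolution 0.1 gave the epithelial class, and resolution 1.0 its numbered clusters and the other classes. Names rest on the mean fold of fixed markers, 3 or more of them at 50 or more CPM. A nephron-like cluster of 80 nuclei was taken out of the class. A cluster of 22 nuclei, whose best marker score was that of red cells, stayed in it without values of its own. Clusters 1 and 2, for which no marker list met the naming rule, stayed in it too. Groups led by haemoglobin genes got no cell type name. The fold was taken against all other kept nuclei, a choice made after seeing the data.

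Summed UMIs of each class and library were given as CPM with Poisson intervals, ratios with conditional binomial intervals, and shares with Clopper-Pearson intervals. The ratio adds 5 CPM to both sides and its interval does not. With 1 library per group no test was made. A gene was counted past 1.5-fold among those with 50 or more UMIs, over both libraries. Named were the 6 genes, list members of 20 or more UMIs with the 4 largest ratios either way, and the 5 genes (3 per member) with the highest correlation over pools of 20000 or more UMIs. Further list members were named after their values were seen, as were the correlations of list genes. The genes, lists and markers were chosen with earlier results of these data known. The ratio and its interval were tried on summed counts simulated with Poisson error alone. The intervals assume the same error, so this cannot check them against spread among nuclei or animals. The alternatives were 1 CPM added, a mean over nuclei, median-of-ratios scaling, a stricter filter (1000 or more UMIs, at most 2% mitochondrial), other doublet settings, clustering with the uroplakin genes, another resolution, fibroblast-like background subtracted, thinning to 700 or 1400 UMIs and Spearman correlation. Added after seeing the data were leaving out cluster 0 and giving clusters the same weight in both libraries. Sequences are from RefSeq.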

Additional observations from a re-analysis of the deposited data

Results flagged for a closer look

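Upk1b, Upk3a, Upk3b and the summed family had opposite signs of the log2 ratio (DNp63cKO over control) in different epithelial clusters, with counting intervals on either side of 0. With 1 library per group these differences between clusters were not tested. Upk1b was 0.34 in the Krt5-led cluster 5 (2110 CPM in DNp63cKO and 1669 CPM in control) and -0.28 in the Cdh20-led cluster 2 (4334 in DNp63cKO and 5246 CPM in control). Upk3a was 0.38 in the Clu-led cluster 3 (6869 in DNp63cKO and 5284 CPM in control) and -0.50 in the dividing cluster 8 (854 in DNp63cKO and 1209 CPM in control). Upk3b was 0.96 in the shallow cluster 1 (324 in DNp63cKO and 165 CPM in control) and -0.52 in cluster 8 (106 in DNp63cKO and 153 CPM in control). The Upk3b interval in cluster 8 was the only one of that gene below 0. It ran from -1.09 to -0.002, from 46 UMIs in DNp63cKO and 83 in control, and so barely left out 0. In cluster 1 it ran from 0.26 to 1.69, from 32 UMIs in DNp63cKO and 39 in control. The summed family was 0.32 in cluster 5 (4499 in DNp63cKO and 3606 CPM in control) and -0.21 in cluster 8 (3145 in DNp63cKO and 3647 CPM in control). Cluster 3 held 26 DNp63cKO nuclei, and clusters 1 and 2 got no name of their own from the marker lists. In cluster 5 the family was 1.71 times the fibroblast-like level in DNp63cKO and 1.64 times in control. In cluster 8 it was 1.20 times that level in DNp63cKO and 1.65 times in control.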

How the results depend on the processing

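The family log2 ratio of the pooled class was 0.16. It was reversed without cluster 0, at -0.75, as were Upk1a (-0.58), Upk2 (-0.55), Upk3a (-0.92) and Upk3b (-0.60), and by construction this leaves out 1089 of 2291 DNp63cKO nuclei. It kept its sign but moved beyond counting error to 0.38 as a mean over nuclei, 0.0855 under the stricter nucleus filter, 0.11 with no doublet removal, 0.13 with the class from resolution 1.0, 0.13 with the fibroblast-like level subtracted and 0.31 after thinning to 700 UMIs. The causes were not tested. With 1 CPM added, median-of-ratios scaling and clustering with the uroplakin genes it stayed within counting error. With the same cluster weights in both libraries it was 0.12 over all 8 clusters and 0.14 without cluster 6. Upk1b changed sign as a mean over nuclei (0.24), after thinning (0.17) and with the same cluster weights (0.05 over 8 clusters, 0.03 without cluster 6). Upk2 was past 1.5-fold as a mean over nuclei (0.77) and after thinning (0.61), and without cluster 0 Upk1b (-0.77), Upk3a and Upk3b were past it as lower and Upk3bl (0.94) as higher. The level outside as a share of that inside moved from the 21.2% of DNp63cKO to 25.9% after thinning, 26.3% with no doublet removal, 18.2% with the top 15% of scores removed and 26.3% under the stricter filter. From the 18.7% of control it moved to 25.3%, 23.4%, 15.8% and 21.0% under the same settings, and to 18.2% with the uroplakin genes in the clustering. The median correlation of the 15 pairs was 0.23 in DNp63cKO and 0.18 in control, 0.37 in DNp63cKO and 0.31 in control unthinned, and 0.31 in DNp63cKO and 0.27 in control at 1400 UMIs. No paired analysis was possible because each group has 1 library, and for the same reason no replicate could be left out. Depth limits Upk3bl most, with 101 in DNp63cKO and 183 UMIs in control in the class, and genotype and pool cannot be told apart.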
